A study of Mus musculus with 72 samples.

Results

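Chromatin accessibility was compared between mouse macrophages with knockdown of SMRT and mouse macrophages with knockdown of NCOR. The comparison used every region of the deposited ATAC-seq table that lay off the mitochondrial genome and reached 10 in no fewer than 3 of the 6 libraries compared. These were 51197 of the 51984 regions, called peaks below, and 45921 of them reached 10 in all 6 libraries. The cells were RAW264.7, a macrophage-like line of BALB/c origin that grows in culture, and they received no treatment beyond a lentiviral short hairpin. The hairpin was directed against NCOR (shNCOR, 3 libraries), against SMRT (shSMRT, 3 libraries) or against GFP, which these cells lack (shGFP, 3 libraries). The shGFP libraries carry vector and hairpin like the others and serve here as the reference level. The labels do not give the number of hairpins per target and do not say whether the cells were clones. They also do not say that libraries of a group came from separate infections or cultures, so every p-value below measures the spread between these libraries. The library titles give the hairpin, whereas the protocol text for this assay speaks of wild-type cells; the titles were followed.

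ATAC-seq uses a transposase that inserts sequencing adapters where DNA is free of nucleosomes, so the number of reads in a peak measures how open the site is. A value below is the number of reads in the peak after scaling each library to 10000000 reads. NCOR and SMRT are related corepressors: large scaffold proteins that carry the histone deacetylase HDAC3 to DNA through nuclear receptors and other transcription factors, and so help to keep target genes off. In macrophages they are known for holding down inflammatory genes, interferon-responsive genes and genes driven by the lipid-sensing nuclear receptors. Since both proteins share partners, a direct comparison of the 2 knockdowns asks where loss of one leaves chromatin in a different state from loss of the other. In whole cultures, a site open in fewer cells and a site less open in each cell cannot be told apart.

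The promoters in which the 2 knockdowns differed were of unlike sequence, and 6 are printed here because the results return to each of them. Each sequence covers the 250 bases before the annotated start, 5′ to 3′ on the strand of the gene, from RefSeq on GRCm38.p6, whose coordinates are those of the mm10 build used in the table. The first 4 promoters had higher values in shSMRT. Capitals mark the interferon-response element core GAAANNGAA and the AP-1 site TGANTCA, on either strand, which do not overlap here. Rsad2 encodes viperin, an antiviral enzyme induced by interferon, and its promoter (chr12:26456453-26456702, minus strand) holds a match to each. Ifitm3 encodes a membrane protein that blocks virus entry (chr7:141010745-141010994, minus strand). Cd80 encodes a costimulatory ligand for T cells (chr16:38458683-38458932, plus strand). Cmklr1 encodes the receptor for the chemoattractant chemerin (chr5:113643604-113643853, minus strand), and neither motif is found in this window.
Rsad2 promoter: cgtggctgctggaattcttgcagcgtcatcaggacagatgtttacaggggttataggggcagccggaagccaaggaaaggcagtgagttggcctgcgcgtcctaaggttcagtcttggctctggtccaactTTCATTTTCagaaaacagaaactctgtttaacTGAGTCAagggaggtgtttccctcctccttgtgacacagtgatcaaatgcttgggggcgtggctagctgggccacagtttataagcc
Ifitm3 promoter: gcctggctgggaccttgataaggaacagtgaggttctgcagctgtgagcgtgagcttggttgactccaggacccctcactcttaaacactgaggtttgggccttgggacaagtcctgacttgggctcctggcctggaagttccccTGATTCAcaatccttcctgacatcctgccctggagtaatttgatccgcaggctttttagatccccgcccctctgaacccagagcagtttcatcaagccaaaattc
Cd80 promoter: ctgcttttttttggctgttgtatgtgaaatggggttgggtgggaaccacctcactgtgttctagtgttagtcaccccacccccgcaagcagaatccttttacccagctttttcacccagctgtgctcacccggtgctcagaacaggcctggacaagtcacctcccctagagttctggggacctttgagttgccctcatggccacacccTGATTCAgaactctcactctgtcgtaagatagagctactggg
Cmklr1 promoter: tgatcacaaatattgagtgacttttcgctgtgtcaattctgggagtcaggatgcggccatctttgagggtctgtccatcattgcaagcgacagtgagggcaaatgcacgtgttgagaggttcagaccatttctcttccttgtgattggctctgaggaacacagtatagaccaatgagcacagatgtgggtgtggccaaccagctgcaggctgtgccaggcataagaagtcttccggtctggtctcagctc

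The other 2 promoters had lower values in shSMRT. Rarb encodes retinoic acid receptor beta, a nuclear receptor. In its promoter (chr14:16575477-16575726, minus strand) capitals mark the direct repeat GTTCANNNNNNGTTCA, which begins 52 bases before the start. That repeat was looked for after the peak's values were known, and it was found in 1 of the 6552 promoter peaks matched to a RefSeq start (0.0153%) and in 0.0762% of all 32817 promoter windows of 300 bases. Slc5a3 encodes a transporter of the osmolyte inositol (chr16:92058072-92058321, plus strand). Its promoter is rich in G and C, and capitals mark its 4 matches to the GC box GGGCGG on either strand.
Rarb promoter: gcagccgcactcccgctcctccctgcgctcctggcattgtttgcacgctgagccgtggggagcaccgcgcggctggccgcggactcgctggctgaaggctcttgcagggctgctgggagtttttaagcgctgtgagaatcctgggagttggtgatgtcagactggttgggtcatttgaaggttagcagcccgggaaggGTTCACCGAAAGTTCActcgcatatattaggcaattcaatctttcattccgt
Slc5a3 promoter: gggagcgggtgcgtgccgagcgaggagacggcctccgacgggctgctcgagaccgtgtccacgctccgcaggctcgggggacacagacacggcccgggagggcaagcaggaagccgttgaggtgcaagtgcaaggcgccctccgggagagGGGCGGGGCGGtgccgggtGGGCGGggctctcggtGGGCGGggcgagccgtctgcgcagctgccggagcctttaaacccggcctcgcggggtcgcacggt

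The libraries held between 6059000 and 10844000 reads, as recovered from the steps of the values. The share of reads inside peaks was 54.1% to 54.9% in the 3 shNCOR libraries, 47.2% to 49.4% in the 3 shSMRT libraries and 50.1% to 53.5% in the 3 shGFP libraries, so this quality measure moved with the comparison; its part in the results was not tested. A value of 0 allows up to 3 reads, which is a scaled value of 2.77 to 4.95 depending on the library, and covers counting error only. Accessibility cannot check a hairpin, which acts on RNA, and the Ncor1 promoter peak did not pass the test (log2 difference -0.11 ± 0.12 SE, limma adjusted p = 0.55). In the companion RNA-seq, Ncor1 stood at 3.61, 4.2 and 4.3 RPKM in shNCOR, against 18.9, 20.2 and 20.2 in shSMRT and 18.4, 20.2 and 18.7 in shGFP. All 10 macrophage markers listed reached 1 RPKM, and their summed level was 8294 to 8485 RPKM in shGFP, 9513 to 9803 in shNCOR and 11229 to 11817 in shSMRT. Of neutrophil and mast cell markers 0 of 10 did, with Ly6g, Mpo, S100a9, Ngp, Cpa3 and Fcer1a listed at 0, of lymphocyte markers 1 of 9 (Lck), and of fibroblast and epithelial markers 1 of 10 (Tagln). Most of the macrophage sum was Lyz2, with means of 5195 RPKM in shGFP, 6548 in shNCOR and 8104 in shSMRT. Single macrophage markers ordered the groups differently. In the same order of groups, means were 388, 321 and 552 for Csf1r, 155, 231 and 115 for Mpeg1, and 707, 599 and 640 for Cd14.

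Accessibility differed between the 2 knockdowns at 12545 peaks. Relative to shNCOR, 3553 peaks were higher in shSMRT (6.94% of those tested) and 8992 were lower (17.6%) at an adjusted p below 0.05 in limma, fitted on log2(value + 5) over all 9 libraries. The added 5 understates differences at weak peaks. The values of the 2 groups did not overlap in 11506 of the 12545 called peaks; over all tested peaks, the groups were apart in 11.1% with shSMRT above and in 24.8% with shSMRT below. Some calls were built into the minimum: 275 peaks reached 10 only in the 3 shSMRT libraries, of which 242 were called higher, and 38 only in the 3 shNCOR libraries, of which 18 were called lower. Without them 3311 higher and 8974 lower peaks were left. The excess of lower peaks belonged to small differences: among called peaks that differed by at least 1 on the log2 scale, 1705 were higher and 335 lower.

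The direction of the small differences followed the strength of the peak and the scaling of the libraries. When peaks were put into 10 equal bins by their shGFP level, the median log2 difference of shSMRT minus shNCOR fell from 0.30 in the weakest bin (shGFP values up to 19.5) to -0.30 in the strongest bin (from 242). In the strongest bin the library medians were 348, 358 and 341 in shNCOR and 271, 294 and 294 in shSMRT. In the weakest bin they were 17.2, 16.5 and 19.0 in shNCOR and 23.5, 22.7 and 21.2 in shSMRT, so the groups were apart at both ends and in opposite directions. The median over all peaks was -0.12 as deposited, 0.04 when libraries were scaled to the same sum over peaks, 0.00 with TMM factors, -0.03 with quantile normalization and -0.01 with cyclic loess, which removes a trend with level and was added after seeing the data. The share of called peaks that were higher was 28.3% as deposited and 66.1%, 56.2%, 59.6% and 65.3% under the other scalings in that order. Absolute direction at an average peak is therefore not settled by these libraries, and differences below are read against the median of -0.12.

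**Figure D1:**
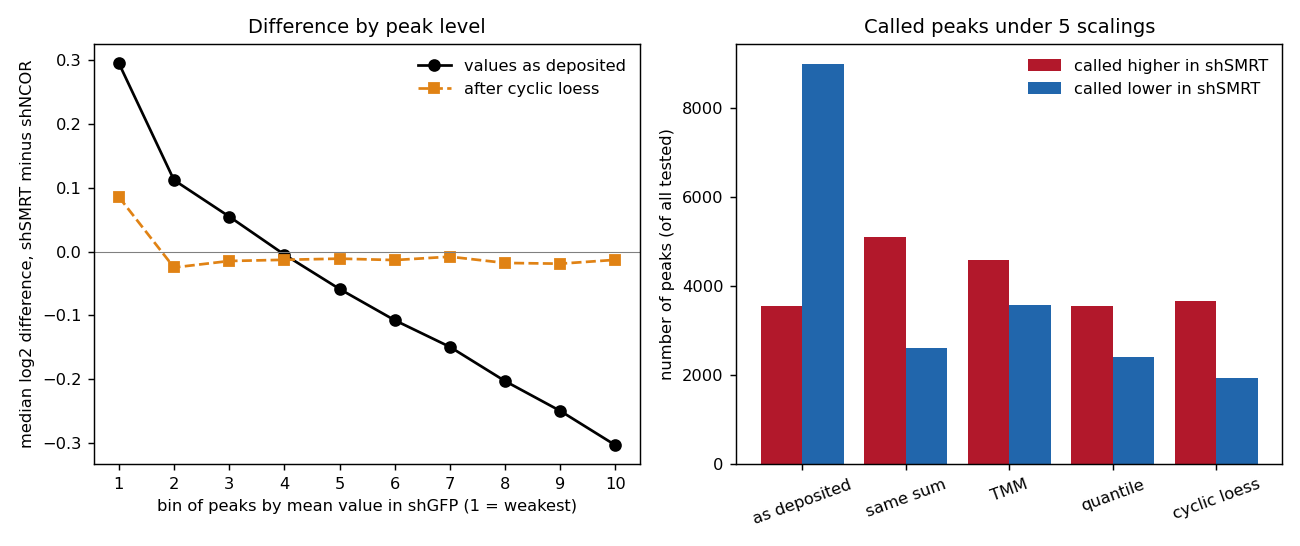
Differences in accessibility by peak strength and by scaling: the left panel plots the median log2 difference of shSMRT minus shNCOR in 10 bins of the shGFP level, as deposited and after cyclic loess, and the right panel the numbers of peaks called higher and lower under each of the 5 scalings. As deposited the medians run from 0.30 to -0.30, while called lower peaks range from 1942 to 8992 across scalings.

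A smaller set held its call whichever scaling was used. Under all 5 scalings 2569 peaks were higher in shSMRT (5.02%) and 1413 were lower (2.76%), 64.5% of the 3982 being higher; this definition was chosen after seeing the data. These are called scaling-robust below. Without the peaks that entered through 1 group they were 2398 (4.71% of the rest) and 1402 (2.76%). The median log2 difference was 1.00 in the robust higher peaks and -0.73 in the robust lower peaks, and 1276 and 292 of them differed by at least 1. Robust higher peaks were weak sites, with a median shGFP value of 43.0 against 60.5 for all peaks, and lay a median of 31.7 kb from the nearest start. Robust lower peaks were stronger and closer, at 113 and 9.25 kb, against 12.4 kb for all peaks. Set beside shGFP, which both knockdowns share as control, the robust higher peaks had a median of 0.58 in shSMRT and -0.39 in shNCOR. The robust lower peaks had -0.49 in shSMRT and 0.22 in shNCOR, where all peaks had -0.09 and 0.05.

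The 12 strongest increases, taken as 1 peak per nearest gene, were 11 distal sites and the Cmklr1 promoter, and 10 of them had a nearest gene that was not among the genes tested in RNA. Of the 12, 8 reached the minimum of 10 only in the 3 shSMRT libraries, so they had to be higher to be tested at all. For these, which are Trim52, Cmklr1, Gfra2, Serpine2, Mrps30, Mdga2, Olfr584 and Sema6d, the values are a description without a test. The top peak was 9.50 kb upstream of Tnfsf8, which encodes the ligand of the receptor CD30 (chr4:63870475-63871084, intergenic). Its value was 5.28, 0 and 15.2 in shNCOR and 87.3, 78.3 and 130.2 in shSMRT. The 3 shSMRT libraries stood far above all shNCOR libraries, a log2 difference of 3.32 ± 0.37 (SE, limma adjusted p = 3.93e-09, n = 3 against 3). A peak 212 kb from the start of Maf, a transcription factor of macrophage and T cell differentiation, had 5.28, 13.2 and 31.7 in shNCOR and 170.9, 150.9 and 167.0 in shSMRT (chr8:115494349-115494767, difference 3.14 ± 0.28, limma adjusted p = 3.56e-12). The Cmklr1 promoter peak (chr5:113643582-113643810), whose sequence is printed above, was nearly closed in shNCOR at 5.28, 1.65 and 5.07 and stood at 62.0, 74.9 and 67.9 in shSMRT, with shGFP at 13.4, 10.3 and 11.1. That is a log2 difference of 3.05 ± 0.35 (SE), with no overlap between the 3 groups, at a peak that entered only through shSMRT. The other 9 were near Trim52 (3.18), Gfra2 and Serpine2 (2.95 each), Mrps30 (2.89), Ndst3 (2.83), Mdga2 (2.81), Olfr584 (2.68), Celrr (2.67) and Sema6d (2.65). The Mdga2 peak differed from the rest in where shGFP lay. It had 2.64, 6.6 and 2.54 in shNCOR, 55.4, 54.5 and 59.4 in shSMRT and 101.8, 116.3 and 121.7 in shGFP, so the intact level was the highest of the 3.

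The 12 strongest decreases, also 1 peak per nearest gene, included sites that were open in 1 knockdown only. An intergenic peak 26.9 kb upstream of Ranbp3l, which encodes a Ran-binding nuclear export factor (chr15:8940839-8941319), had 85.8, 72.6 and 126.9 in shNCOR, 3.76, 4.54 and 7.07 in shSMRT and 6.71, 13.1 and 4.61 in shGFP. The shNCOR libraries alone were open there, a difference of -3.28 ± 0.35 (SE). No shSMRT library reached 10, so this peak entered only through shNCOR and its difference is a description without a test. The reverse held at the promoter of Fxyd2, the gamma subunit of the sodium pump (chr9:45403064-45403235). There shNCOR had 70.0, 51.2 and 69.8 and shGFP 68.2, 68.4 and 50.7, while shSMRT had 3.76, 9.07 and 11.3 (difference -2.43 ± 0.27, limma adjusted p = 4.12e-09). The promoter of Htr1b, a serotonin receptor gene (chr9:81633450-81634170), was a strong peak at 172.9, 179.9 and 197.9 in shNCOR and 65.7, 46.5 and 49.5 in shSMRT. It differed by -1.69 ± 0.14 (limma adjusted p = 4.47e-13), and Htr1b RNA differed by -1.34. The other 9 genes were Ube2e3 (-2.42), Itga4 (-2.12), Rarb (-2.11), Olfm3 (-1.94), Pvt1 (-1.84), Dcaf12 (-1.69), Btg1 (-1.68), Opcml (-1.64) and Fam13c (-1.64); further peaks of the same genes, such as the Rarb promoter described below, are left out of this ranking. All 24 strongest peaks were scaling-robust and kept their call in every alternative run, which for those that entered through 1 group adds no support.

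**Figure D2:**
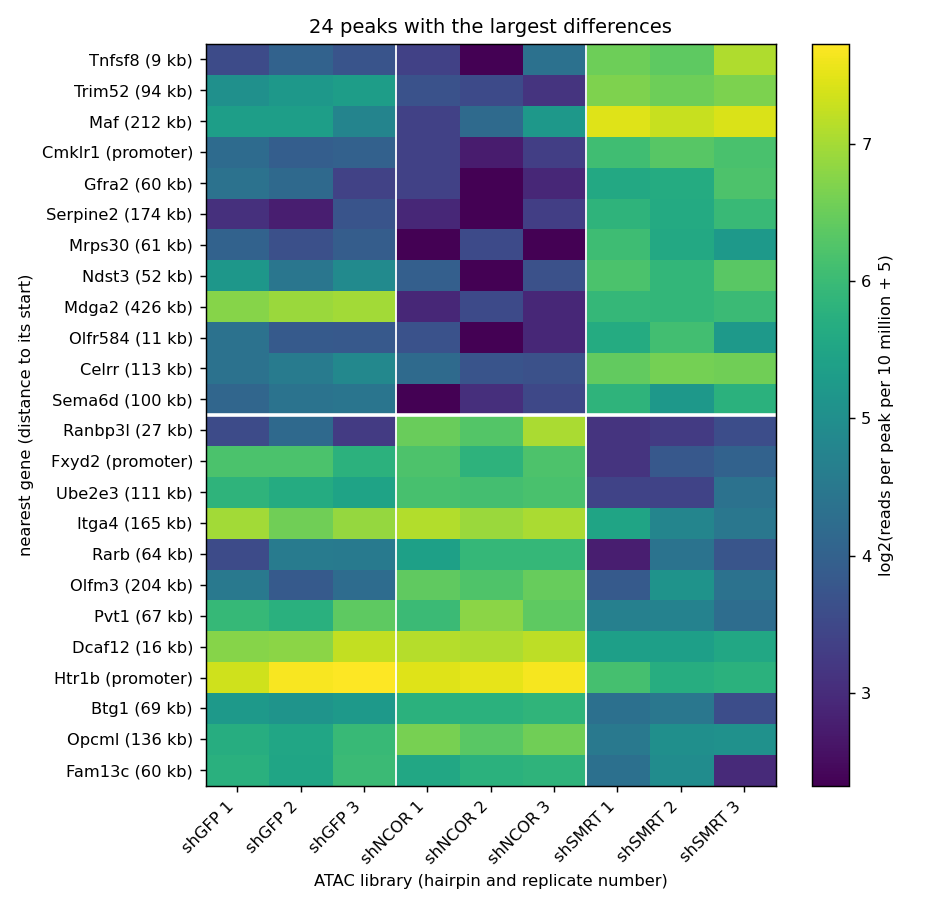
The 12 strongest increases and the 12 strongest decreases in shSMRT against shNCOR, 1 peak per nearest gene: log2(value + 5) in each of the 9 libraries, 3 for each of shNCOR, shSMRT and shGFP. Tnfsf8 is low in all 3 shNCOR libraries (0 to 15.2) and high in all 3 shSMRT libraries (78.3 to 130.2), and Ranbp3l shows the reverse.

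Some genes were nearest to many called peaks, and those described here were picked for having the most calls. How often calls share a nearest gene was not tested. Over all tested peaks 6.94% were called higher and 17.6% lower. Near Maf 13 of 15 tested peaks were higher in shSMRT, all 13 scaling-robust, 56.5 to 399 kb from the start; 1 of the 13 had entered only through shSMRT. Their summed value was 236, 238 and 345 in shNCOR, 410, 389 and 431 in shGFP and 1118, 1010 and 1014 in shSMRT. The peaks of the sum were those already called, so it describes their size and is no further test. Maf RNA was listed at 0, 0.012 and 0 RPKM in shNCOR and reached only 0.311, 0.233 and 0.239 in shSMRT, below the minimum for testing. Near Prdm1, which encodes the transcriptional repressor BLIMP1, 13 of 16 peaks were robustly higher, all 60.1 to 297 kb upstream, 3 of them having entered only through shSMRT. Their sum was 342, 262 and 351 in shNCOR and 1025, 997 and 1000 in shSMRT, with Prdm1 RNA listed at 0 in all shNCOR libraries and at 0.322, 0.163 and 0.31 RPKM in shSMRT. The domains at Maf and Prdm1 were thus wide, while the RNA of the nearest gene stayed low.

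Ank2 (a membrane adaptor of the ankyrin family) had 14 of 21 peaks higher, 13 robustly (1 entered only through shSMRT), and here shGFP lay with shSMRT: the sums were 420, 347 and 466 in shNCOR, 1138, 1171 and 1073 in shSMRT and 1066, 909 and 965 in shGFP. Sema6d, which encodes a transmembrane semaphorin, had 9 of 9 higher, of which 3 had entered only through shSMRT. Its sums were 172, 178 and 236 in shNCOR and 536, 557 and 511 in shSMRT. Sema6d RNA was at 0, 0.008 and 0.036 RPKM in shNCOR, 0.565, 0.54 and 0.597 in shGFP and 1.24, 1.26 and 1.48 in shSMRT. It reached the RNA minimum of 1 RPKM only in shSMRT, so its RNA difference is a description without a test. Marcks had 8 of 13 higher (1 entered only through shSMRT) and Bcas1os2 8 of 15; the strongest peak near Bcas1os2 lost its call without shNCOR replicate 2 (1 of 3) or without shSMRT replicate 2.

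The densest decrease surrounded Rarb, where 10 of 11 tested peaks were lower in shSMRT, all scaling-robust. Over these 10 peaks the sum was 1065, 998 and 1035 in shNCOR, 361, 372 and 337 in shSMRT and 257, 293 and 261 in shGFP. At the promoter peak (chr14:16575333-16575757), which covers the sequence with the repeat printed above, shNCOR had 183.5, 123.8 and 168.7 and shSMRT 47.9, 29.5 and 29.7. The difference was -2.02 ± 0.22 (limma adjusted p = 1.05e-09). Against the shared shGFP controls this peak differed by 2.08 in shNCOR and by 0.06 in shSMRT. An intronic peak 22.8 kb from that start (chr14:16598062-16598541) had 170.3, 133.7 and 158.6 in shNCOR and 62.9, 43.1 and 41.0 in shSMRT, a difference of -1.57 ± 0.20 (limma adjusted p = 1.15e-07). Rarb RNA moved the same way, with 10.3, 10.6 and 10.5 RPKM in shNCOR, 0.851, 0.763 and 1.21 in shSMRT and 0.694, 0.86 and 0.513 in shGFP.

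Between Ube2e3, a ubiquitin-conjugating enzyme gene, and Itga4, which encodes integrin alpha 4, the opposite group moved. Of 16 peaks assigned to Ube2e3, 10 were lower in shSMRT, 9 robustly (1 entered only through shNCOR), 90.8 to 191 kb from its start, and the Itga4 peak above lay beyond them on the same chromosome (chr2:79089848-79090292). The sums over the 10 peaks were 1022, 1111 and 1160 in shNCOR, 1137, 1077 and 1070 in shGFP and 536, 548 and 514 in shSMRT. Ube2e3 RNA did not pass the test (-0.04 ± 0.05, limma adjusted p = 0.535), while Itga4 RNA was lower by -0.58 (limma adjusted p = 8.37e-06). Assignment to the nearest start is a statement of position only. Other genes with many lower peaks were Zmiz1 (11 of 18, of which 3 scaling-robust), Morrbid (10 of 25, 5 robust), Irf2bp2 (10 of 19, 2 robust) and Tbl1xr1 (9 of 25, 4 robust, with 1 higher). At Zmiz1 and Morrbid RNA was higher in shSMRT, against the direction of the peaks, by 0.29 ± 0.06 (SE, limma adjusted p = 0.00198) and 0.84 ± 0.12 (limma adjusted p = 0.000115), and at Irf2bp2 it did not pass the test (-0.03 ± 0.04, limma adjusted p = 0.554). Tbl1xr1 encodes a subunit of the NCOR and SMRT complexes themselves, and its RNA did not pass the test (-0.11 ± 0.05, limma adjusted p = 0.0822).

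**Figure D3:**
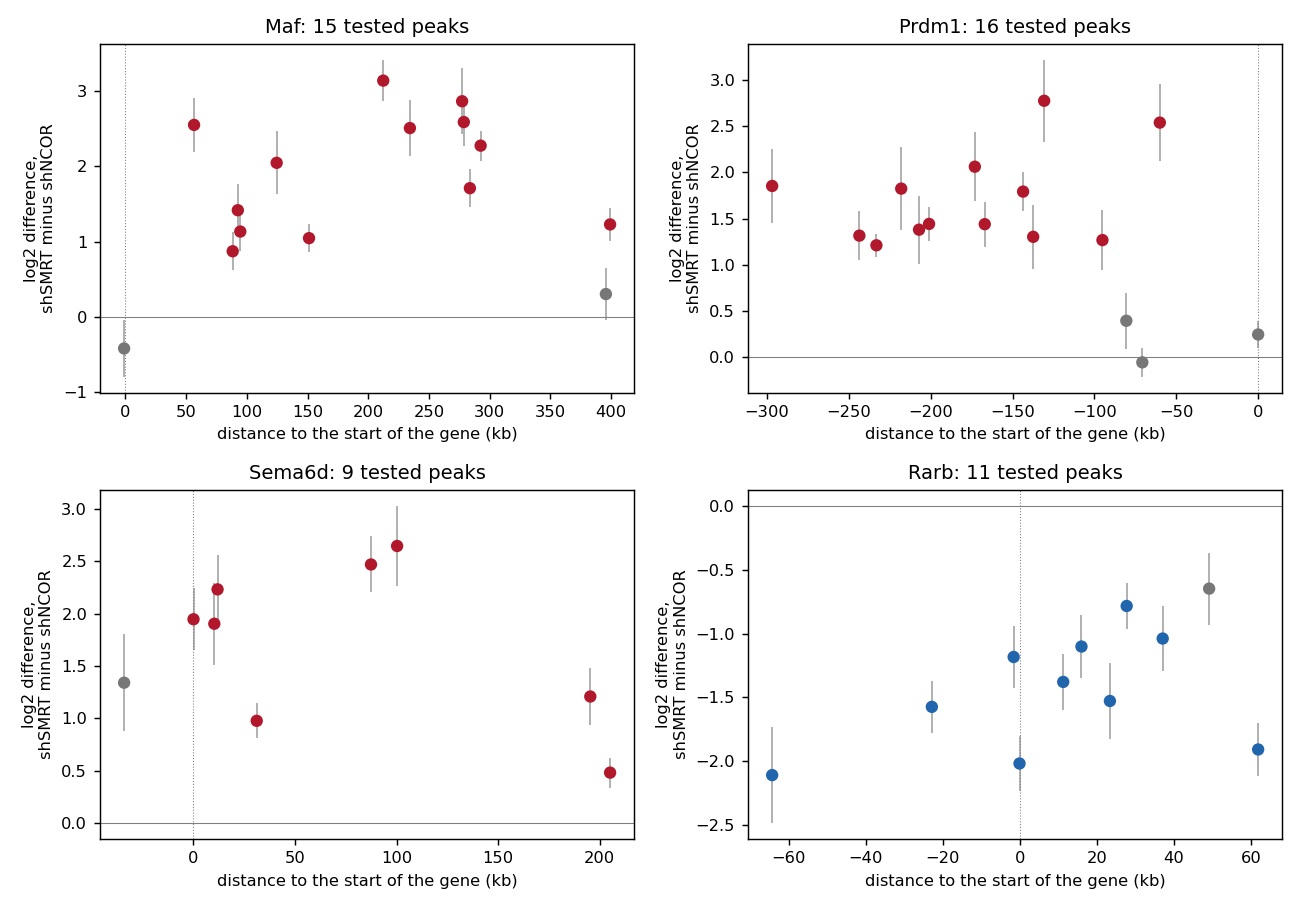
Log2 difference of shSMRT minus shNCOR for each tested peak around selected genes, plotted by distance from the start of the gene in kb, for Maf, Prdm1, Sema6d and Rarb; bars are 1 SE, coloured points were called under all 5 scalings (red higher, blue lower) and grey points were not. Around Rarb all 11 peaks lie below 0 and 10 are called, and around Maf and Prdm1 13 of 15 and 13 of 16 are called above 0.

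Promoters and distal sites differed in direction. Of 9181 promoter peaks 107 were robustly higher in shSMRT (1.17%) and 330 robustly lower (3.59%). Among 17437 intergenic peaks the order was the opposite, with 1340 higher (7.68%) and 480 lower (2.75%), and among 20939 intronic peaks 1038 were higher (4.96%) and 491 lower (2.34%). The median log2 difference was -0.29 at promoters and -0.02 at intergenic peaks as deposited, and -0.06 at promoters after cyclic loess. Distance gave the same picture: robust higher peaks made up 1.05% of peaks within 100 bases of a start and 13.1% of the 3663 peaks more than 100 kb away, whereas robust lower peaks were 3.97% and 2.54%. Without peaks that entered through 1 group, robust higher peaks were 12.2% of those beyond 100 kb. Peaks beyond 100 kb had a median difference of 0.09 as deposited and 0.12 after cyclic loess. Peak strength also differs between these classes, and its part in the difference between classes was not tested beyond the loess values.

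**Figure D4:**
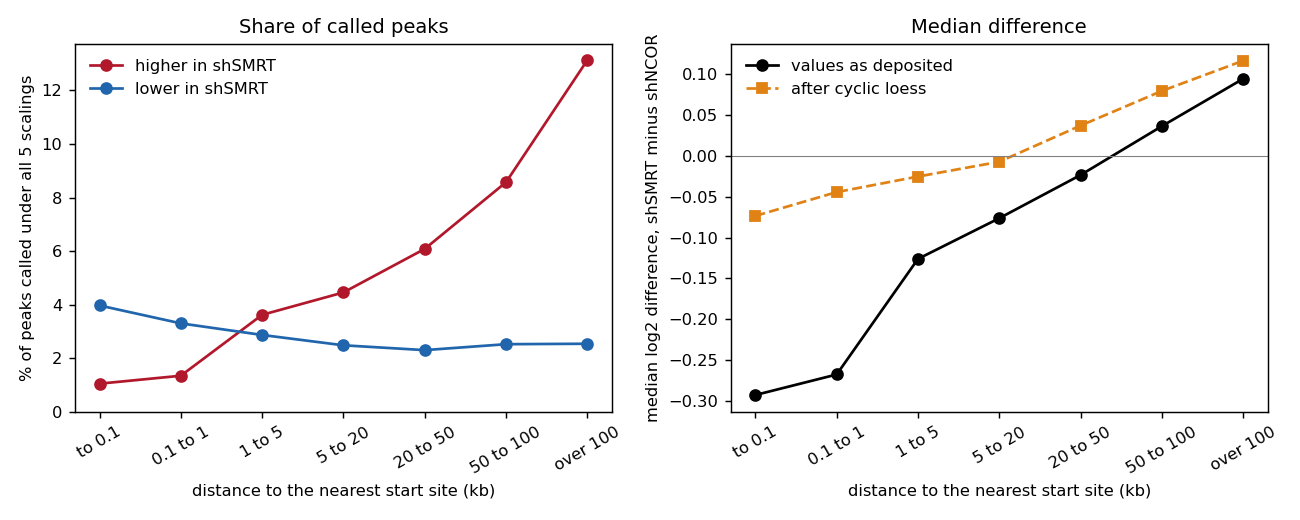
Accessibility differences by distance to the nearest start in kb: the left panel plots the percent of tested peaks in each bin that were called under all 5 scalings, and the right panel the median log2 difference of shSMRT minus shNCOR as deposited and after cyclic loess. Higher peaks climb from 1.05% within 100 bases to 13.1% beyond 100 kb, while lower peaks go from 3.97% to 2.54%.

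Promoter peaks robustly higher and robustly lower in shSMRT than in shNCOR also differed in base composition. Of the promoter peaks matched to a RefSeq window, the 63 robustly higher had a median GC content of 53.7% and 9 CpG sites per window, and the 246 robustly lower had 65.7% and 25, against 62.3% and 23 for all 6552 matched. Windows with fewer than 5 CpG sites were 20.6% of the higher, 1.22% of the lower and 4.29% of all. An AP-1 match was in 23.8% of the higher windows, 5.28% of the lower and 5.25% of all matched, and in 7.81% of all promoter windows. An interferon-response core was in 20.6%, 4.47% and 6.72%, and in 8.55% of all promoter windows. The GC box was in 49.2% of the higher, 78.5% of the lower and 70.7% of all matched, and in 35.6% of all promoter windows. GCGNGGGCG, the site of the EGR factors, was in 3.17%, 20.3% and 11.9% of the same sets and in 5.56% of all promoter windows. The nuclear receptor site AGGTCA was in 12.7%, 13.8% and 10.4%, and in 16.3% of all promoter windows. These are shares of letters, not of bound sites, and short windows with unlike base content hold these motifs at unlike rates. Base content also went with peak strength. The median shGFP value was 79.6 at matched promoters with 0 to 4 CpG sites and 212 at those with 25 to 65. The part of peak strength in these shares was not tested.

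Among repeats, peaks annotated to the endogenous retroviral family RLTR45 were low in shSMRT as a group. The 110 peaks had a median difference of -0.45, and -0.51 after cyclic loess, with 24 called lower (21.8%, against 17.6% of all peaks) and 1 higher; 2 of the 24 had entered only through shNCOR. Robustly lower were 13 (11.8%, against 2.76%). Their summed value was 4637, 4507 and 4897 in shNCOR, 4839, 4551 and 4855 in shGFP and 3183, 3272 and 3121 in shSMRT, so the shSMRT libraries stood apart. Peaks in the MT retroviral families went the other way: of 933, 116 were higher and 46 lower, with a median of 0.07. Of these, 74 and 10 were scaling-robust (7.93% and 1.07%, against 5.02% and 2.76% of all peaks). Of the 74, 13 had entered only through shSMRT. Intergenic peaks as a whole had 7.68% robustly higher and 2.75% robustly lower. The MT share of robustly higher peaks was thus close to that of intergenic peaks and is not particular to these families. Reads from near-identical repeat copies may be shared between them. On the Y chromosome 6 of 16 peaks were higher and 0 lower (limma, adjusted p below 0.05), 4 of the 6 robustly. These are 37.5% called higher and 25.0% robustly higher, against 6.94% and 5.02% of all peaks, over few peaks. The promoter of Ddx3y, an RNA helicase gene there, had 58.1, 56.1 and 63.4 in shNCOR and 92.0, 97.6 and 117 in shSMRT (difference 0.74 ± 0.17, limma adjusted p = 0.00132), and its RNA differed by 0.87.

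Interferon-stimulated genes, which encode antiviral proteins, were more open in shSMRT at a part of their sites. Of 201 peaks within 50 kb of a start of the 36 genes listed, 20 were robustly higher (9.95%) and 1 robustly lower (0.498%), against 5.02% and 2.76% of all peaks. Of the 20, 2 had entered only through shSMRT. As deposited 23 were higher and 34 lower, with a median of -0.02 where all peaks had -0.12; the median was 0.06 within 10 kb and 0.13 for peaks nearest to a member. At the Rsad2 promoter peak (chr12:26456093-26456653), whose sequence with an interferon-response core and an AP-1 match is printed above, shNCOR had 18.5, 14.9 and 8.88, shSMRT 37.6, 48.8 and 28.3, and shGFP 57.0, 45.9 and 42.4. The difference was 1.19 ± 0.29 (limma adjusted p = 0.0019), and every shNCOR library was below every other library. An intergenic Rsad2 peak 17.0 kb from the start (chr12:26439289-26439696) had 0, 1.65 and 12.7 in shNCOR, 47.0, 27.2 and 17.0 in shSMRT and 43.6, 41.3 and 37.8 in shGFP (1.99 ± 0.38, limma adjusted p = 0.000145). A peak in the last intron of Mx1, an antiviral GTPase gene, was closed in both other groups. It had 3.96, 9.90 and 3.81 in shNCOR, 2.24, 3.75 and 10.1 in shGFP and 47.9, 43.1 and 31.1 in shSMRT (chr16:97472567-97472906, 2.10 ± 0.41 SE); it entered only through shSMRT, so this is a description without a test. The Ifitm3 promoter (chr7:141010674-141010894), which holds the AP-1 match shown, had 18.5, 18.2 and 22.8 in shNCOR and 40.4, 40.8 and 36.8 in shSMRT (0.84 ± 0.26, limma adjusted p = 0.0145); that call was lost without shSMRT replicate 1.

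In the RNA-seq, all 32 interferon-stimulated genes tested were higher in shSMRT than in shNCOR, where 22.8% of the 10789 genes tested were higher and 29% lower. Their median log2 difference was 1.23, and they included Rtp4 (2.56), Ifi44 (2.36), the chemokine Cxcl10 (2.13), the transcription factor Irf7 (2.11) and Usp18 (2.04), which restrains interferon signalling. The summed RPKM of the list was 175, 167 and 173 in shNCOR, 376, 381 and 408 in shSMRT and 643, 618 and 633 in shGFP. Both knockdowns were thus below the shared control, shNCOR the farther. The list had been seen to move in earlier results of these data and is not independent evidence of direction.

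NF-kB and AP-1 inflammatory genes were close to the average of all peaks in chromatin. Of 273 peaks 17 were robustly higher (6.23%, against 5.02% of all peaks) and 8 robustly lower (2.93%, against 2.76%). Their median was -0.11, near that of all peaks. The largest was an intergenic peak 18.5 kb upstream of Tnfaip3, which encodes the NF-kB inhibitor A20 (1.53 ± 0.31, limma adjusted p = 0.00027), and another lay 44.6 kb upstream of Nos2, inducible nitric oxide synthase (1.27 ± 0.33, limma adjusted p = 0.00315). A peak near Jun, an AP-1 subunit, was lower (-0.96 ± 0.18, limma adjusted p = 0.000147). In RNA 20 of 23 tested genes of the list were higher and 1 lower, against 22.8% and 29% of all genes tested.

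Genes of fatty acid synthesis and desaturation lay on the other side. Of 113 peaks 14 were robustly lower in shSMRT (12.4%, against 2.76% of all peaks) and 4 robustly higher (3.54%, against 5.02%). Their median was -0.29, where all peaks had -0.12. The promoter of Scd1, the stearoyl-CoA desaturase that makes monounsaturated fatty acids (chr19:44407758-44408491), had 201.9, 199.7 and 161.1 in shNCOR and 96.7, 97.6 and 60.8 in shSMRT. The difference was -1.12 ± 0.14 (limma adjusted p = 4.42e-08), and Scd1 RNA differed by -1.11. A peak 11.6 kb upstream of its neighbour Scd2 (chr19:44281957-44282153) had 104.3, 94.1 and 115.4 in shNCOR and 48.8, 44.2 and 24.1 in shSMRT (-1.36 ± 0.20, limma adjusted p = 1.94e-06), with RNA at -0.65. At both sites the groups were well apart. Of 15 genes tested in RNA 11 were lower and 2 higher, against 29% and 22.8% of all genes tested. Cholesterol synthesis genes had 16 of 24 lower in RNA and 0 higher, against 29% and 22.8% of all genes tested. Of their 131 peaks 4 were robustly higher (3.05%) and 6 robustly lower (4.58%), against 5.02% and 2.76% of all. As deposited 7 were higher and 44 lower (33.6%, against 17.6% of all peaks). Within 10 kb 0 of 46 were higher and 29 lower, 4 of these robustly. The median shGFP value was 97.1 at the 131 peaks and 60.5 over all peaks. The part of peak strength was not tested.

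Single peaks near nuclear receptor targets moved in both directions. Peaks near retinoid receptor and target genes numbered 90. Of these, 9 were robustly lower (10%) and 1 higher (1.11%), against 2.76% and 5.02% of all peaks. Of the 9, 8 were those of Rarb and the other lay near Dhrs3, a retinal reductase gene, so the list's count rests on 1 locus. The higher one was 4.15 kb from Islr, beside Stra6, the cell-surface receptor for retinol-binding protein, at 10.6, 9.90 and 2.54 in shNCOR and 47.0, 46.5 and 36.8 in shSMRT (2.00 ± 0.40, limma adjusted p = 0.000218). Of 126 peaks near targets of LXR, the oxysterol receptor, 4 were robustly higher (3.17%) and 6 robustly lower (4.76%). All peaks had 5.02% and 2.76%, and within 10 kb the LXR counts were 1 and 1 of 50. The cholesterol exporter gene Abca1 held 1 robustly higher and 1 robustly lower peak within a short stretch of the same chromosome. An Abca1 intron 1 peak (chr4:53149737-53150039) had 66.0, 57.8 and 78.7 in shNCOR, 25.4, 15.9 and 25.5 in shSMRT and 6.71, 13.1 and 17.5 in shGFP (-1.42 ± 0.30, limma adjusted p = 0.000488). An upstream peak (chr4:53187155-53187503) had 42.2, 29.7 and 38.1 in shNCOR, 95.8, 78.3 and 74.99 in shSMRT and 66.0, 95.6 and 64.6 in shGFP (1.08 ± 0.20, limma adjusted p = 7.88e-05). Abca1 RNA differed by -0.29.

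Targets of PPAR, the fatty acid receptor family, had 5 robustly higher (3.70%) and 10 robustly lower (7.41%) of 135 peaks, against 5.02% and 2.76% of all; within 10 kb the counts were 2 and 2. A peak 4.87 kb upstream of Fabp4, the fatty acid carrier of macrophages and fat cells (chr3:10213332-10213638), had 10.6, 11.6 and 22.8 in shNCOR, 43.2, 60.1 and 48.1 in shSMRT and 51.4, 37.5 and 46.1 in shGFP (1.51 ± 0.28, limma adjusted p = 7.44e-05), while Fabp4 RNA did not pass the test (0.17, limma adjusted p = 0.399). Downstream of Fabp5, its paralogue, a peak (chr3:10022538-10023110) had 71.3, 90.8 and 88.8 in shNCOR, 19.7, 35.2 and 28.3 in shSMRT and 95.0, 89.1 and 93.1 in shGFP (-1.46 ± 0.20, limma adjusted p = 4.65e-07), and Fabp5 RNA differed by -1.02. Another called peak near Fabp5 went against its RNA, with a difference of 1.13, and lost its call without shNCOR replicate 2. The lipid droplet coat gene Plin2 had a lower peak 6.86 kb upstream (-1.16 ± 0.31, limma adjusted p = 0.00406) and lower RNA (-1.14).

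Other lists are given by their counts of robustly higher and lower peaks, to be read against 5.02% and 2.76% of all peaks. They were 10 and 12 of 283 for monocyte and macrophage identity, 5 and 0 of 137 for IL-4 and alternative activation, and 8 and 3 of 107 for dendritic cells and MHC class II. In the last of these, the Cd80 promoter (chr16:38458717-38458924), with the AP-1 match printed above, had 31.7, 18.2 and 39.3 in shNCOR and 70.4, 68.1 and 65.1 in shSMRT. It differed by 1.12 ± 0.24 (limma adjusted p = 0.000499) and its RNA by 2.20. The counts were 2 and 11 of 251 for lysosome genes, 5 and 4 of 154 for osteoclast genes, and 3 and 10 of 130 for complement and phagocytosis. In that last list an intronic peak of Axl, a receptor for dying cells, was higher at 1.48 ± 0.19 (limma adjusted p = 1.11e-07). Stress response genes had 0 and 10 of 189, proliferation genes 3 and 12 of 207, hypoxia and glycolysis genes 1 and 10 of 174, and antioxidant genes 2 and 6 of 152. Replication-dependent histone genes had 2 and 7 of 77, EGR, MAF and KLF factors 1 and 2 of 123, and corepressor subunits 1 and 4 of 60. Lists of cell types that these cultures should lack had 0 and 1 of 76 (neutrophil and mast cell), 5 and 6 of 88 (lymphocyte) and 6 and 0 of 53 (fibroblast and epithelial). The last is 11.3% robustly higher, a larger share than for the interferon-stimulated genes, so the excess is not particular to those; 1 of the 6 had entered only through shSMRT. The balance turned with the assignment in some lists: by nearest gene it was 19 higher and 6 lower for macrophage identity, 8 and 2 for EGR, MAF and KLF factors and 4 and 0 for lymphocyte genes. The osteoclast balance was 0 and 3 within 10 kb but 16 and 4 by nearest gene, and that of complement and phagocytosis was 2 and 1 within 10 kb.

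The genes with the largest RNA differences usually, but not always, had a peak that moved with them. Hpgd, which inactivates prostaglandins, had 1.01, 1.05 and 0.637 RPKM in shNCOR and 62.5, 58.9 and 61.2 in shSMRT, a log2 difference of 5.03. Its peak 9.39 kb upstream had 7.92, 6.6 and 10.2 in shNCOR and 39.4, 42.0 and 69.3 in shSMRT (2.03 ± 0.41, limma adjusted p = 0.000242), and the one 16.1 kb upstream differed by 1.93. Both upstream peaks were chosen after their values were seen. The tested peak nearest to the Hpgd start, in an intron, did not pass the test (0.64 ± 0.27, limma adjusted p = 0.0821). Near Pdcd1, which encodes the inhibitory receptor PD-1, 4 of 5 peaks were robustly higher, 1 of which entered only through shSMRT. The strongest, 6.00 kb upstream, had 17.2, 9.90 and 27.9 in shNCOR and 117.4, 120.2 and 118.9 in shSMRT (2.48 ± 0.25, limma adjusted p = 1.28e-10), and Pdcd1 RNA went from 0.021, 0.047 and 0.026 RPKM to 6.20, 5.57 and 5.92. The matrix protein gene Tnc had 6 of 7 peaks robustly higher (1 entered only through shSMRT) with RNA at 2.90, and Fcgr1, a high-affinity IgG receptor gene, had 3 of 4 with RNA at 2.84. The RNA of Pdcd1 and of Tnc reached 1 RPKM only in shSMRT, so these 2 RNA differences are descriptions without a test.

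At the promoters of Angptl2 and Acy1, as at that of Rarb above, shNCOR stood farther from the shared control than shSMRT did. The peak at Angptl2, which encodes a secreted angiopoietin-like protein (chr2:33215744-33216155), had 54.1, 46.2 and 43.1 in shNCOR, 170.9, 157.7 and 157.1 in shSMRT and 182.3, 186.6 and 177.1 in shGFP (1.66 ± 0.14, limma adjusted p = 4.47e-13). Its RNA nevertheless ordered the groups differently, at 2.34, 2.07 and 2.20 RPKM in shNCOR, 30.2, 32.6 and 31.5 in shSMRT and 9.14, 10.0 and 8.23 in shGFP. The promoter of Acy1, an aminoacylase gene (chr9:106438144-106438578), had 52.8, 59.4 and 71.0 in shNCOR, 219.7, 204.2 and 219.3 in shSMRT and 168.8, 138.7 and 170.6 in shGFP (1.74 ± 0.13, limma adjusted p = 5.22e-14), with RNA at 2.86. Mt3 and Uchl1 had RNA differences of 3.02 and 2.71 and no called peak. Their nearest peaks differed by 0.46 ± 0.28 (limma adjusted p = 0.245) and 0.08 ± 0.36 (limma adjusted p = 0.897). Mt3 RNA reached 1 RPKM only in shSMRT, so its RNA difference is a description without a test.

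On the lower side, Car2, the carbonic anhydrase of osteoclasts, had 590, 612 and 614 RPKM in shNCOR, 94.9, 90.0 and 91.4 in shSMRT and 194, 181 and 197 in shGFP. A peak over its first exon (chr3:14886138-14886840) had 257.4, 184.8 and 211.9 in shNCOR, 96.7, 78.3 and 108.9 in shSMRT and 162.1, 170.6 and 175.2 in shGFP. The 3 groups kept the same order in both assays without overlap (peak -1.16 ± 0.13, limma adjusted p = 2.22e-09; RNA -2.70). Opcml, a cell adhesion gene, had 6 of 10 peaks robustly lower and RNA at -2.13. The promoter peak of Map2k6, a kinase upstream of p38, was lower by -0.93 ± 0.17 (limma adjusted p = 7.07e-05) with RNA at -1.37, and the first-exon peak of S1pr1, a sphingosine phosphate receptor gene, by -0.72 ± 0.12 (limma adjusted p = 1.7e-05) with RNA at -1.70. Gas6, with RNA at -1.72, had 4 of 5 peaks lower, 2 robustly. The Gas6 peak nearest to the start was called but not scaling-robust (-0.77 ± 0.25, limma adjusted p = 0.0173). Mlycd, with RNA at -1.47, had a promoter peak called lower that was not scaling-robust either (-0.47 ± 0.13, limma adjusted p = 0.0056). Ranbp3l RNA was lower by -2.55 while its nearest tested peak, in intron 1, did not pass the test (0.10 ± 0.18, limma adjusted p = 0.744). The upstream peak described above was lower too, but it entered only through shNCOR and is a description without a test. The RNA of Opcml and of Ranbp3l reached 1 RPKM only in shNCOR, so these 2 RNA differences are likewise descriptions without a test.

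Over 7332 genes with a promoter peak and testable RNA, the 2 differences had a Pearson r of 0.40 and a Spearman rho of 0.26, and r was 0.36 after cyclic loess. This is across genes, which are not independent replicates. Of 34 genes with a robustly higher promoter, 31 had higher RNA, 0 lower and 3 no call (Trak1, Lrif1 and Oxr1), with a median RNA difference of 1.03. There were 107 robustly higher promoter peaks in all and 330 robustly lower, so most of the higher ones had no tested RNA and are left out. A gene below 1 RPKM in shNCOR and shGFP could enter only through shSMRT, so the share of 31 in 34 partly follows from the minimum. Of 288 genes with a robustly lower promoter, 149 had lower RNA (51.7%) and 28 higher (9.72%), with a median of -0.14; one of them was Slc5a3. At its promoter (chr16:92057883-92058598), with the GC boxes printed above, shNCOR had 213.8, 236.0 and 177.6 and shSMRT 106.1, 132.7 and 103.3 (-0.85 ± 0.14, limma adjusted p = 1.58e-05), and its RNA differed by -1.17. Of the 7010 genes with neither, 24.2% had higher and 29.3% lower RNA.

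**Figure D5:**
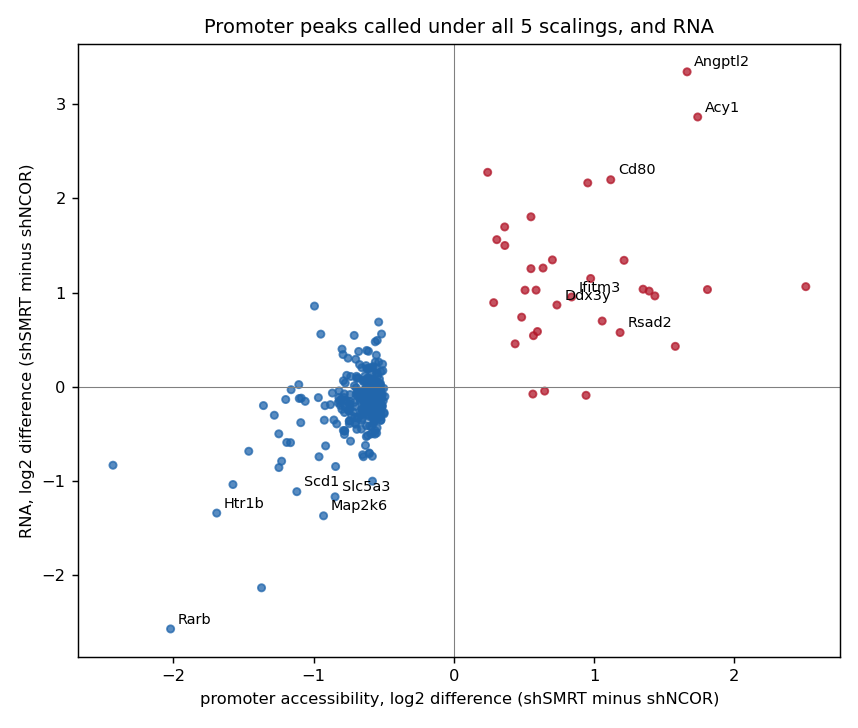
Log2 RNA difference against log2 promoter accessibility difference, both shSMRT minus shNCOR, for the genes with tested RNA whose promoter peak was called under all 5 scalings (red higher, blue lower), 1 point per gene. Of the 34 robustly higher promoters with tested RNA 31 have higher RNA, while the 288 robustly lower ones spread on both sides of 0.

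Distal peaks followed RNA in the same graded way among genes tested in RNA, under the same limit on weakly expressed genes. Among genes nearest to at least 2 robustly higher distal peaks (intronic or intergenic) and no lower one, 66.4% of 131 had higher RNA and 9.16% lower. With 1 such peak the shares were 46.7% and 14.4% of 550 genes, and with none 21.0% and 29.3% of 9561. With 1 robustly lower distal peak they were 19.9% and 41.0% of 402 genes, and with at least 2 they were 12.4% and 57.7% of 97. The RNA and ATAC libraries are separate libraries of the same 3 hairpin groups.

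The deposited peak lists of single libraries gave a coarser view of the same regions. In all 3 shSMRT lists and no shNCOR list were 1180 tested peaks, of which 771 were called higher and 555 robustly so, with a median of 1.08. In all 3 shNCOR lists and no shSMRT list were 200 peaks, of which 94 were called lower and 65 robustly so, with a median of -0.70. List length moved with the library, at 38464, 36539 and 41326 regions in shNCOR and 46579, 43103 and 36270 in shSMRT, so presence in a list also reflects how much was called. Close to the minimum value, 680 peaks passed in exactly 3 libraries, with a mean value of 6.09 to 50.3 (median 12.5), and 238 just missed it with 2 libraries, at 4.08 to 16.5 (median 9.02).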

How the data were processed

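Chromatin accessibility (ATAC-seq) and RNA (RNA-seq) were analysed in 3 shGFP, 3 shNCOR and 3 shSMRT libraries per assay, 18 of the 72 samples of the series. The authors deposited ATAC values as reads per peak scaled to 10000000 reads, counted with HOMER on mm10 over peaks merged from 9 lists, per the file headers; 1 peak had a cell without a number and was left out. Depth was recovered from the steps of the low values, of which 100% were whole reads within 0.1 read. RNA values are RPKM as the authors deposited them, from HOMER on RefSeq exons with 1 transcript per gene, per the file headers. Bowtie2, HISAT2, MACS2 and DESeq2 are named in the submitters' processing notes, without their roles.

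Groups were taken from the library titles. The main tests were limma 3.58.1 (R 4.3.3) with a trended prior on log2(value + 5) for 51197 peaks and on log2(RPKM + 1) for the 10789 genes that reached 1 RPKM in 3 or more libraries, fitted over all 9 libraries without a replicate block, with Benjamini-Hochberg adjustment below 0.05. The scripts were tested on simulated data. Alternatives covered scaling, filters, pseudocounts, weights, a block, a fold threshold and each library left out. Named peaks were the 12 strongest in each direction among calls with groups apart and a mean of at least 20, 1 per nearest gene, the strongest peak of the genes with most calls, the strongest per list, the nearest peak of the genes with the largest RNA differences, and the promoters printed, which were chosen after their values were seen, as were Ddx3y, the upstream peaks of Pdcd1 and Hpgd, and the interferon-stimulated RNAs. Members, lists and motifs were chosen with earlier results of these data known. Replicates of a group differed by more than counting noise (chi-square per peak 1.64 to 1.90).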

Additional observations from a re-analysis of the deposited data

How the results depend on the processing

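Counts of higher peaks ran from 3181 to 5097 over the alternatives in scaling and fitting to the 6 compared libraries; lower peaks depended on scaling, at 2618 with the same sum per library, 3574 with TMM factors, 2413 with quantile normalization and 1942 with cyclic loess (chosen after seeing the data). Against a fold threshold of 1.2 limma called 1145 higher and 624 lower. With single libraries left out, higher peaks ran from 2512 to 3646 and lower peaks from 6419 to 8707, and genes in RNA from 2202 to 2460 and from 2758 to 3137. Replicate numbers did not pair the libraries (same-number correlations of -0.006, 0.013 and -0.038 in ATAC), and a replicate block gave 3518 higher and 8559 lower peaks, and 2522 higher and 3218 lower genes. No called named peak or named gene changed direction. The balance of all calls did turn with scaling: 28.3% of called peaks were higher as deposited, against 56.2% with TMM factors and 66.1% with the same sum. The median over all peaks was -0.12 as deposited and 0.04 with the same sum, and some list balances and medians turned with the window. Of 130 called named peaks 80 kept their call in all 22 alternatives and 94 in all but the fold threshold. All 17 named genes kept theirs in 13. For Mt3, Tnc, Pdcd1, Ranbp3l and Opcml, which reached 1 RPKM in 1 group only, this adds no support. Of 92 list counts 75 moved by more than 1.5 times with windows of 10 kb or nearest genes, which hold fewer peaks. The planned edgeR and DESeq2 alternatives on recovered reads were not run; limma voom on recovered reads was, and called 2951 higher and 8635 lower. Depth of 6059000 to 10844000 reads limits precision most at weak peaks.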

Other observations

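The 4 mitochondrial peaks left out of the comparison held between 43510 and 46664 reads in all 9 libraries, while library depth ran from 6059000 to 10844000 reads. Introns of Ms4a1, which encodes the B cell protein CD20, held 2 higher peaks (1.59 ± 0.20, limma adjusted p = 5.11e-08, and 1.57 ± 0.24, limma adjusted p = 5.55e-06), both lower in shNCOR than in shGFP (-1.28 and -1.12). A peak near Ptms, within 50 kb of the T cell gene Cd4, was lower in shSMRT (-1.45 ± 0.15, limma adjusted p = 6.16e-10), with Ptms RNA at -0.63.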
